A study of Homo sapiens with 19 samples.

Results

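The 10 transcripts described here belong to genes that NF-kB is known to switch on, together with PTX3, and each was followed across 17 RNA libraries of MDA-MB-231 cells, a human triple-negative breast cancer line. They were taken by transcript identifier, 1 transcript per gene, out of 175775 transcripts in the deposited tables, and all 10 were present in all 17 libraries. The list was drawn up with earlier results of these libraries known. PTX3 was chosen by its measured level in siHMGN5 against NC and is described without a test throughout; the other 9 were chosen by name, as genes known to respond to NF-kB, from rows present in the tables.

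Every group was grown in L15 with 10% fetal bovine serum and received 30 nM siRNA. In the siRNA experiment, 4 libraries came from cells with control siRNA (NC), 2 from cells with siRNA to HMGN5 (siHMGN5) and 2 from cells with siRNA to STAT3 (siSTAT3). In the lentiviral experiment, 3 libraries came from cells with control siRNA and the control vector (NC_Vec), 3 from cells with STAT3 siRNA and the control vector (siSTAT3_Vec), and 3 from cells with STAT3 siRNA and lentiviral HMGN5 (siSTAT3_HMGN5). STAT3 is a transcription factor activated by cytokine receptors, and HMGN5, a high mobility group protein, binds nucleosomes. The question was how the transcriptome responds to loss of either protein, and what added HMGN5 does in cells with STAT3 siRNA. The transcripts of STAT3, of HMGN5 and of markers of the cell line were not analysed here, so neither the depletion nor the added HMGN5 was checked.

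NF-kB is a family of transcription factors held in the cytoplasm by inhibitor proteins of the IkB family. Inflammatory cytokines such as interleukin 1 lead to the destruction of the inhibitor, and the freed factors then switch on chemokines, cytokines and adhesion molecules as well as their own inhibitors, which shut the signal off again. In breast cancer cells the chemokines made in this way are known for drawing neutrophils and for acting on the tumour cells themselves.

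The members fall into 5 roles. CXCL8 (interleukin 8, ENST00000307407.7) and the closely related CXCL1 (ENST00000395761.3), CXCL2 (ENST00000508487.2) and CXCL3 (ENST00000296026.4) are chemokines that attract neutrophils through CXCR2. IL1A (ENST00000263339.3) and IL1B (ENST00000263341.6) are the 2 interleukin 1 cytokines. PTX3 (ENST00000295927.3) is a secreted pattern-recognition protein of the long pentraxins. NFKBIA (ENST00000216797.9) encodes IkB-alpha, the inhibitor that holds NF-kB in the cytoplasm, and TNFAIP3 (ENST00000237289.8) encodes A20, a ubiquitin-editing enzyme that dampens the signal upstream. ICAM1 (ENST00000264832.7) is a cell surface adhesion molecule that binds leukocyte integrins.

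The promoters are given as sequence context. A count of kB-like letters is not independent of the choice of the members, 9 of which were taken as genes known to respond to NF-kB, and CXCL1, CXCL2 and CXCL3 are related genes with similar promoters. RefSeq promoters (GRCh38.p14) of 250 bases before to 50 after the start were matched by symbol for 10 of 10 members, and 2 motifs are set in capitals below, searched on both strands: GGNNNTTCC, a core of NF-kB sites (kB-like), and TTCNNNGAA, the core of STAT sites. The kB-like letters occurred in 8 of 10 members, the exceptions being IL1A and IL1B, and in 20.1% of all 35116 promoters of the same length. The STAT letters occurred in 2 of 10 members, ICAM1 and IL1B, and in 7.66% of all promoters. The AP-1 letters TGANTCA occurred in 2 of 10 members, CXCL8 and IL1A, and in 7.71% of all promoters. A match describes the letters only and was not tested as a binding site. The first 7 sequences run from 100 to 41 bases before the start, 5′ to 3′ on the gene's strand, and are shown because each holds a kB-like match there.
CXCL8, chr4:73740469-73740528, plus strand: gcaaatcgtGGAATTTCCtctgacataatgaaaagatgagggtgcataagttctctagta
CXCL1, chr4:73869293-73869352, plus strand: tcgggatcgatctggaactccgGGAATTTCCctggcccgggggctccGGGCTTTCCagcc
CXCL2, chr4:74099236-74099295, minus strand: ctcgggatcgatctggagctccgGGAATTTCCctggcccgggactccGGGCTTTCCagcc
CXCL3, chr4:74038730-74038789, minus strand: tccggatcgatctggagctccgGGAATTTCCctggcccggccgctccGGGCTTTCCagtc
PTX3, chr3:157436750-157436809, plus strand: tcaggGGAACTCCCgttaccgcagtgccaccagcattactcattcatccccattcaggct
NFKBIA, chr14:35404790-35404849, minus strand: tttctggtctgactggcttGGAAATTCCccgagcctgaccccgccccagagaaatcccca
TNFAIP3, chr6:137867159-137867218, plus strand: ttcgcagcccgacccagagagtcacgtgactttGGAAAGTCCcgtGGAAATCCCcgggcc
The 9 letters GGAATTTCC were the same in CXCL8, CXCL1, CXCL2 and CXCL3, and the last 3 of these also shared GGGCTTTCC between 53 and 45 bases before the start. For ICAM1 and IL1B the window runs from 200 to 41 bases before the start, because the kB-like match of ICAM1 and the STAT match of IL1B lie further out. They are shown because these 2 genes moved most differently between the experiments, as given further on.
ICAM1, chr19:10270920-10271079, plus strand: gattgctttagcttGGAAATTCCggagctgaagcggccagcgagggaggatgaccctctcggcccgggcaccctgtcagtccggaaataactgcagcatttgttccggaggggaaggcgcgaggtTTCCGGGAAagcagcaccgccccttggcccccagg
IL1B, chr2:112836820-112836979, minus strand: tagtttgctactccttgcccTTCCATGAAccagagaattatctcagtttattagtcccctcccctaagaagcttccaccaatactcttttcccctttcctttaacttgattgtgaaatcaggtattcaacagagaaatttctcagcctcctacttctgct
ICAM1 held a kB-like match 186 to 178 bases before the start and a STAT match, TTCCGGGAA, 75 to 67 bases before it. IL1B held a STAT match, TTCCATGAA, 180 to 172 bases before the start and no kB-like match in this window.

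The siRNA experiment had 19114033 to 19509422 estimated reads per library and the lentiviral experiment 22500086 to 23047081. Levels are given as CPM, the estimated reads scaled to a common library size with TMM factors within each experiment, and 3 reads in a library correspond to 0.154 to 0.157 CPM in the siRNA experiment and 0.130 to 0.133 in the lentiviral one. A library at 3 reads or fewer occurred 1 time for CXCL2, 4 times for CXCL3, 1 time for IL1A and 3 times for IL1B, and never for the other 6 members. The 4 NC libraries fell into pairs by a chi-square statistic per degree of freedom. It was taken only over transcripts with whole-number estimates in all 17 libraries and enough reads, 361 to 411 of them for each 2 libraries compared. It was 1.99 to 2.32 within replicates 1 and 2 or 3 and 4, 41.8 to 47.9 across the pairs, and 1.79 to 6.47 within the other groups. The labels say neither what set the pairs apart nor whether a replicate was a culture of its own. The spread behind each p-value is that between these libraries and may be technical.

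The members themselves differed between the NC pairs. The mean CPM of NC replicates 3 and 4 was above that of replicates 1 and 2 for 9 of 10 members, by 1.31-fold for CXCL1, 1.55-fold for ICAM1, 1.82-fold for CXCL8, 1.87-fold for PTX3, 1.88-fold for TNFAIP3, 2.16-fold for NFKBIA, 2.38-fold for CXCL3, 3.28-fold for CXCL2 and 5.02-fold for IL1A. IL1B went the other way and was 6.85-fold higher in replicates 1 and 2, on 10 and 11 reads against 2 and 1. For none of the 10 did the 2 pairs overlap. For CXCL1, however, replicates 2 and 4 nearly met, at 0.363 and 0.365 CPM on 7.401 and 7.289 estimated reads. The share of all transcripts whose pairs did not overlap, or that were higher in replicates 3 and 4, was not counted. The pairs also stood apart over the transcripts with whole-number estimates compared above, so neither count is read as a trait of the members. Comparisons with NC are therefore given against all 4 libraries and, for members named below whose value moved with the pair, against each pair.

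**Figure D1:**
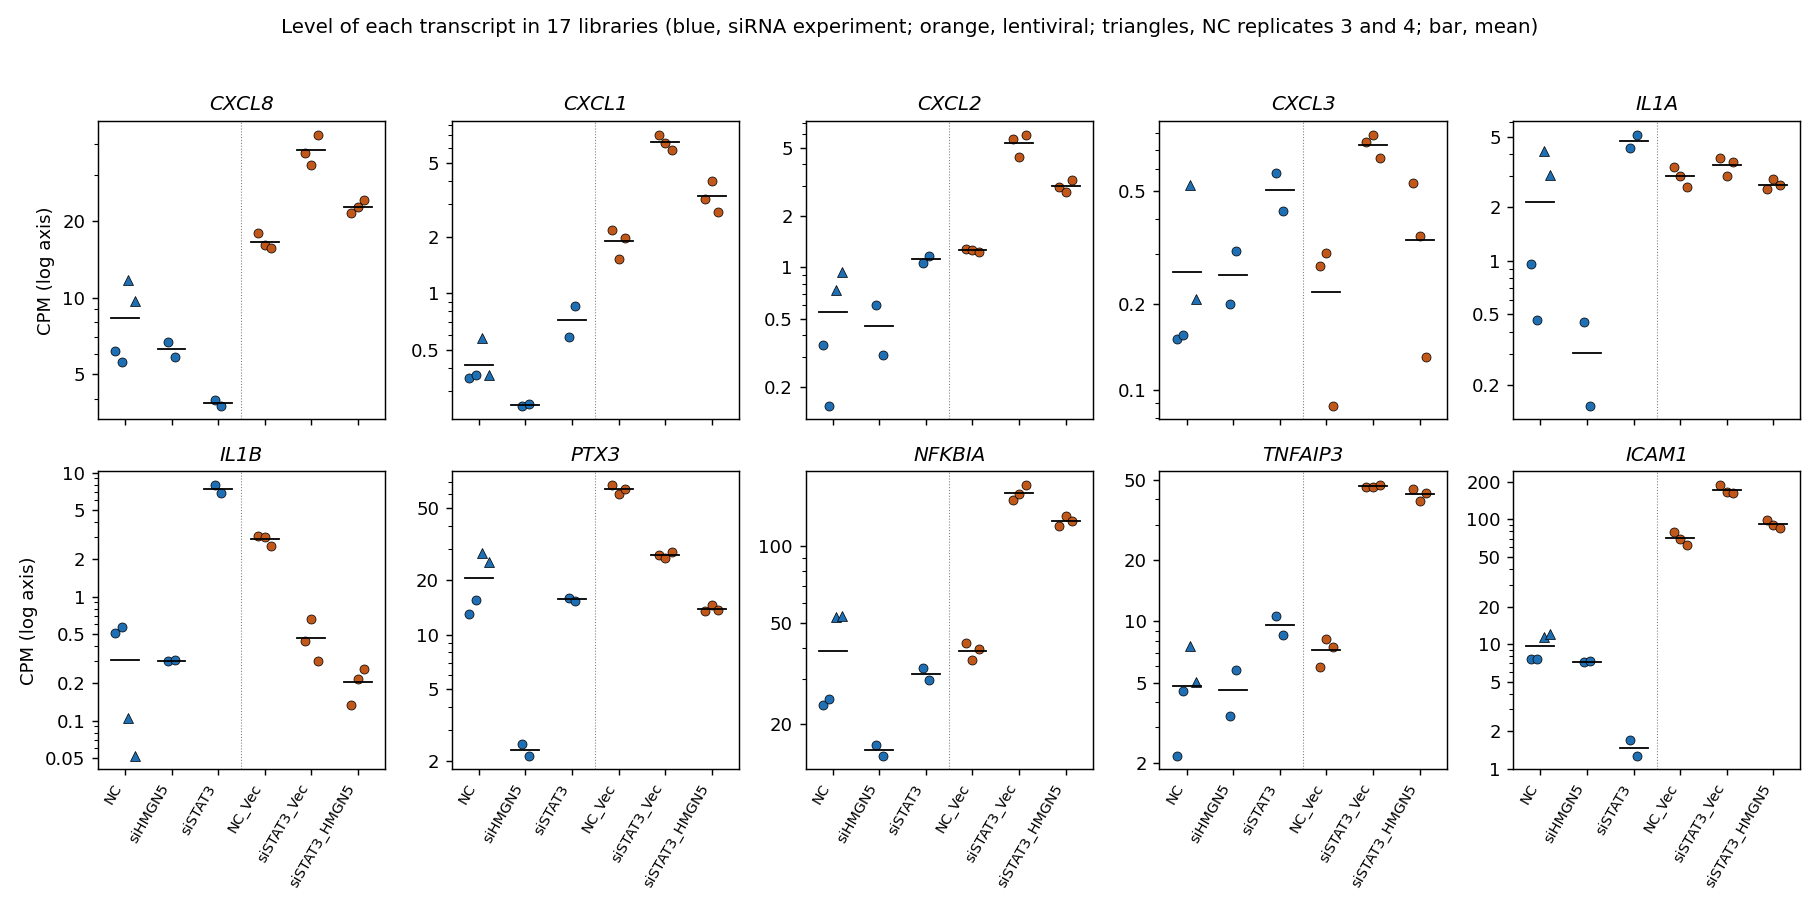
CPM of the 10 transcripts in each of the 17 libraries (points, log axis) by group, with the group mean as a bar. Blue points are the siRNA experiment, with NC replicates 3 and 4 as triangles, and orange points the lentiviral experiment. IL1B is high in siSTAT3 (6.86 and 7.93 CPM) and NC_Vec (2.55 to 3.10 CPM) and below 1 CPM elsewhere, whereas ICAM1 is lowest in siSTAT3 (1.28 and 1.69 CPM) and highest in siSTAT3_Vec (162 to 188 CPM).

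In the lentiviral experiment, STAT3 siRNA went with higher levels of CXCL8, CXCL1 and CXCL2, of both inhibitors and of ICAM1, and with lower levels of IL1B and PTX3. Of the 9 members tested (all but PTX3), 6 rose and 1 fell in siSTAT3_Vec against NC_Vec, beside 14.2% of 69951 transcripts that changed in either direction (7.17% higher, 7.04% lower). The median log2 fold change of all transcripts was 0.02. None is given for the members, because CXCL3 and IL1B passed the filter on low counts only through a group where each was high. This group was siSTAT3_Vec for CXCL3 and NC_Vec for IL1B, the member that fell. All adjusted p-values are from edgeR's quasi-likelihood test with Benjamini-Hochberg adjustment over all transcripts tested, with a threshold of 0.05, and SE is the standard error of the log2 fold change. In bulk RNA, more expressing cells and more RNA per cell cannot be told apart.

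CXCL8 stood at 17.9, 16.0 and 15.5 CPM in NC_Vec, 36.8, 32.9 and 43.2 in siSTAT3_Vec, and 21.3, 22.6 and 24.1 in siSTAT3_HMGN5. The 3 groups did not overlap, with siSTAT3_HMGN5 between the other 2. CXCL8 was 2.29-fold higher in siSTAT3_Vec than in NC_Vec (log2 fold change 1.19 ± 0.11, SE, edgeR adjusted p = 0.000448). CXCL1 measured 2.19, 1.52 and 1.98 CPM in NC_Vec, 7.05, 6.40 and 5.85 in siSTAT3_Vec, and 3.20, 4.01 and 2.74 in siSTAT3_HMGN5, again without overlap. It rose 3.39-fold with STAT3 siRNA (1.76 ± 0.22, edgeR adjusted p = 0.00171).

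CXCL2 was at 1.28, 1.26 and 1.23 CPM in NC_Vec, 5.61, 4.43 and 5.93 in siSTAT3_Vec, and 2.93, 2.75 and 3.22 in siSTAT3_HMGN5. Its 4.22-fold rise with STAT3 siRNA (2.08 ± 0.19, edgeR adjusted p = 0.000356) was the largest of the 3 chemokines called. CXCL3, the scarcest member in NC_Vec, was at 0.273, 0.304 and 0.0881 CPM in NC_Vec, 0.745, 0.789 and 0.654 in siSTAT3_Vec, and 0.533, 0.349 and 0.130 in siSTAT3_HMGN5. It reached 10 reads in all 3 siSTAT3_Vec libraries but in none of NC_Vec, so it was tested only because of the group where it was high, and its value of 1.69 ± 0.69 did not pass (edgeR adjusted p = 0.168).

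CXCL1, CXCL2 and CXCL3 are similar enough in sequence that Salmon can move reads between them. CXCL1 had a whole-number estimate in 1 of 17 libraries and CXCL2 and CXCL3 in none, against 17 of 17 for IL1A and PTX3. NFKBIA, TNFAIP3 and ICAM1 also had a whole-number estimate in none, CXCL8 in 9 and IL1B in 11. Which transcripts share reads with these members was not tested, and their reads were not summed with any other. Because of the similarity of CXCL1, CXCL2 and CXCL3, the reads of the 3 chemokines were also summed. The sum was 3.74, 3.09 and 3.30 CPM in NC_Vec and 13.4, 11.6 and 12.4 in siSTAT3_Vec, a log2 fold change of 1.89 (edgeR adjusted p = 0.00011). The rise with STAT3 siRNA thus did not hang on how the reads were divided among them.

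The 2 interleukin 1 transcripts parted. IL1B stood at 3.10, 3.04 and 2.55 CPM in NC_Vec, at 0.438, 0.658 and 0.305 in siSTAT3_Vec, and at 0.133, 0.218 and 0.261 in siSTAT3_HMGN5. It was 6.15-fold lower in siSTAT3_Vec than in NC_Vec (log2 fold change -2.62 ± 0.41, edgeR adjusted p = 0.00442). IL1B reached 10 reads in 3 of 3 NC_Vec, 2 of 3 siSTAT3_Vec and 0 of 3 siSTAT3_HMGN5 libraries. It was thus tested only because of NC_Vec, where it was high, and its fall is to be read with that limit. IL1A was at 3.37, 3.0 and 2.60 CPM in NC_Vec, 3.77, 2.98 and 3.58 in siSTAT3_Vec, and 2.53, 2.88 and 2.65 in siSTAT3_HMGN5. Its groups overlapped between NC_Vec and siSTAT3_Vec, and its value of 0.20 ± 0.19 did not pass (edgeR adjusted p = 0.60).

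PTX3, secreted in response to inflammatory signals, was at 67.3, 60.02 and 64.0 CPM in NC_Vec, 27.5, 26.5 and 28.8 in siSTAT3_Vec, and 13.6, 14.6 and 13.7 in siSTAT3_HMGN5. Every library of one group lay apart from those of the next, in 2 steps downwards. The log2 fold change was -1.21 from NC_Vec to siSTAT3_Vec and -0.98 from siSTAT3_Vec to siSTAT3_HMGN5, with no test.

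The inhibitors rose as well, TNFAIP3 more than any other member tested. It stood at 5.97, 8.17 and 7.49 CPM in NC_Vec and at 46.3, 46.2 and 47.2 in siSTAT3_Vec, a 6.45-fold rise (2.69 ± 0.12, edgeR adjusted p = 1.76e-05). NFKBIA stood at 41.7, 35.7 and 39.5 CPM in NC_Vec and at 151, 161 and 174 in siSTAT3_Vec, a 4.16-fold rise (2.06 ± 0.08, edgeR adjusted p = 9.72e-06). ICAM1, the adhesion molecule, went from 78.6, 69.8 and 62.6 CPM in NC_Vec to 188, 164 and 162 in siSTAT3_Vec, a 2.44-fold rise (1.29 ± 0.10, edgeR adjusted p = 0.000206). None of these 3 had overlapping groups.

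**Figure D2:**
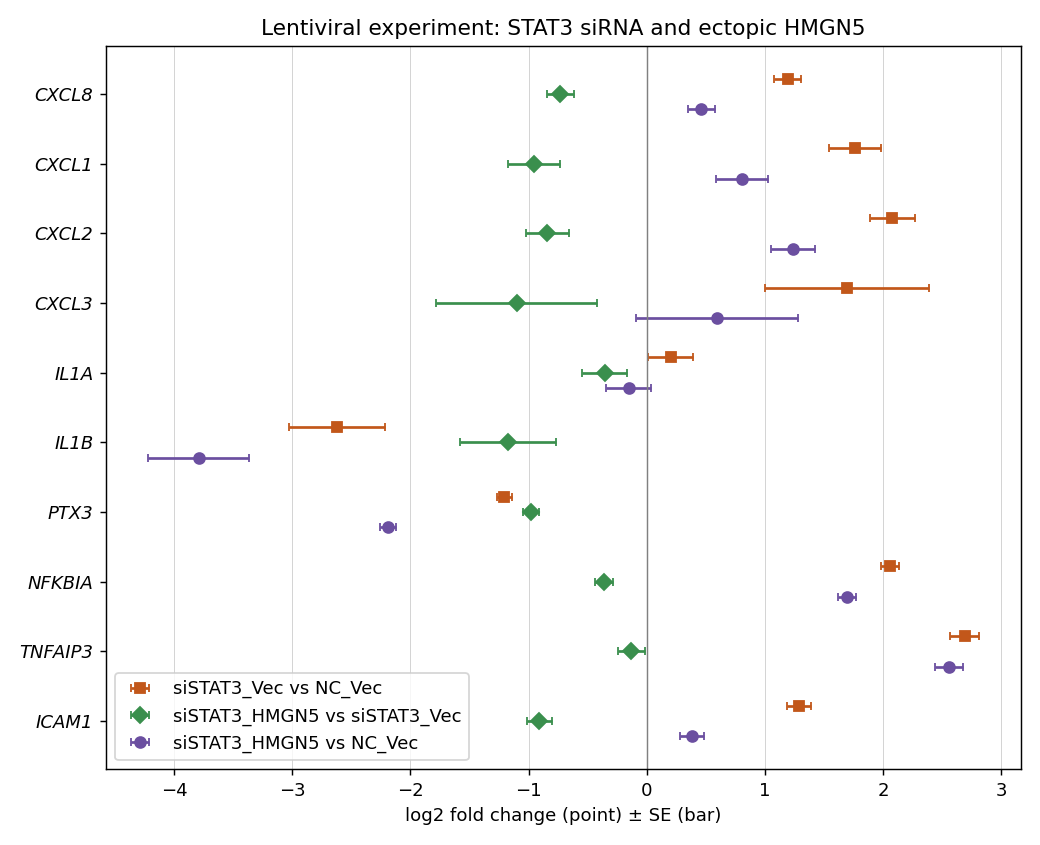
Log2 fold change (point) with its SE (bar) for each transcript in the 3 comparisons of the lentiviral experiment; PTX3 is shown without a test. STAT3 siRNA (orange squares) lies at 1.19 to 2.69 for CXCL8, CXCL1, CXCL2, NFKBIA, TNFAIP3 and ICAM1. Added HMGN5 (green diamonds) lies below 0 for all 10 transcripts, where 34506 of all 69951 transcripts tested had a value above 0. CXCL3 was tested only because it was high in siSTAT3_Vec, which favours a value below 0.

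With HMGN5 added to cells with STAT3 siRNA, CXCL8, ICAM1 and NFKBIA fell, and the other members tested had values below 0 that did not pass. Of all 69951 transcripts tested, 34506 had a value above 0. Among the members, CXCL3 was tested only because it was high in siSTAT3_Vec, which favours a value below 0. In siSTAT3_HMGN5 against siSTAT3_Vec, 3 of 9 members fell and none rose, beside 3.76% of transcripts that changed (2.24% lower, 1.52% higher). The median log2 fold change of all transcripts was -0.01. This comparison shares the siSTAT3_Vec libraries with the one before, so a library that is high by chance in siSTAT3_Vec makes the one value larger and the other smaller.

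ICAM1 came down to 99.2, 89.6 and 85.4 CPM in siSTAT3_HMGN5, 1.88-fold below siSTAT3_Vec (log2 fold change -0.91 ± 0.10, edgeR adjusted p = 0.00440). CXCL8 was 1.66-fold lower (-0.73 ± 0.11, edgeR adjusted p = 0.0146), but its call was lost without siSTAT3_Vec replicate 1 or siSTAT3_HMGN5 replicate 1 or 2 (adjusted p = 0.0508, 0.0568 and 0.0585). It was also lost with replicate number as a block (0.0550). NFKBIA, at 121, 132 and 126 CPM with HMGN5, was 1.29-fold lower (-0.36 ± 0.07, edgeR adjusted p = 0.0428). The NFKBIA call was lost when any 1 of the 6 libraries compared was left out (adjusted p 0.0589 to 0.135). It was also lost without the filter on low counts (0.0779) and with the block (0.124). Of the 3, the fall of ICAM1 alone passed in every alternative fit.

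CXCL2 and CXCL1 lay near the threshold, at -0.84 ± 0.18 (edgeR adjusted p = 0.0504) and -0.96 ± 0.22 (edgeR adjusted p = 0.0601). Both passed under DESeq2 (adjusted p = 0.000288 and 8.22e-05) and limma-voom (0.0283 and 0.0245). Their sum with CXCL3, at 6.66, 7.10 and 6.09 CPM with HMGN5, fell by 0.92 on the log2 scale (edgeR adjusted p = 0.00983). CXCL3 alone was at -1.10 ± 0.68 (adjusted p = 0.530) and IL1A at -0.36 ± 0.19 (0.437).

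IL1B had a log2 fold change of -1.17 ± 0.40 with added HMGN5 (edgeR adjusted p = 0.200) and reached 10 reads in no siSTAT3_HMGN5 library. TNFAIP3, at 45.1, 39.1 and 43.2 CPM with HMGN5, stayed near its siSTAT3_Vec level (-0.13 ± 0.11, edgeR adjusted p = 0.722). HMGN5 thus went with values below 0 for members that STAT3 siRNA had raised and also for IL1B and PTX3, which were already lower with STAT3 siRNA.

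Against NC_Vec, most members of siSTAT3_HMGN5 remained away from the control level. In that comparison 6 of 9 members were higher and 1 was lower, beside 22.3% of transcripts that changed (10.9% higher, 11.4% lower). The median log2 fold change of all transcripts was 0.02. It shares both of its groups with the 2 comparisons above.

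TNFAIP3 was 5.89-fold above NC_Vec (log2 fold change 2.56 ± 0.12, edgeR adjusted p = 1.1e-05), NFKBIA 3.24-fold (1.70 ± 0.08, adjusted p = 9.56e-06) and CXCL2 2.35-fold (1.23 ± 0.18, adjusted p = 0.00243). IL1B was 13.9-fold below (-3.79 ± 0.43, adjusted p = 0.000628), but it was tested only because of NC_Vec, where it was high. PTX3 was 4.56-fold below with no test. CXCL1 (0.80 ± 0.22, adjusted p = 0.0345), CXCL8 (0.46 ± 0.11, 0.0225) and ICAM1 (0.38 ± 0.10, 0.0330) were closer to the control. The calls of these 3 were lost when single libraries were left out: without NC_Vec replicate 2, NC_Vec replicate 3 or siSTAT3_HMGN5 replicate 2, only 4 members passed. CXCL1 and ICAM1 also lost theirs without the filter on low counts (adjusted p = 0.0848 and 0.0601) and with only the groups compared in the fit (0.0889 and 0.0540), which left 5 members. With the block CXCL1 lost its call as well (0.0809). CXCL3 (0.59 ± 0.68) and IL1A (-0.15 ± 0.19) did not pass, and both overlapped NC_Vec.

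In the siRNA experiment few differences passed, and the 4 NC libraries were spread into pairs as given above. CXCL3 stayed under the filter on low counts in this experiment, so 8 members were tested. In siSTAT3 against NC, IL1B rose and ICAM1 fell, 2 of 8 members, beside 4.28% of 74347 transcripts (1.36% higher, 2.92% lower). The median log2 fold change of all transcripts was 0; none is given for the members, because CXCL1 reached 10 reads in 2 of 2 siSTAT3 libraries but in 1 of 4 of NC and 0 of 2 of siHMGN5, and IL1B in 2, 2 and 0.

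IL1B stood at 0.506, 0.571, 0.105 and 0.0522 CPM in NC, at 0.30 and 0.307 in siHMGN5, and at 7.93 and 6.86 in siSTAT3. In reads, this was 10, 11, 2 and 1 in NC, 6 in each siHMGN5 library, and 150 and 129.33 in siSTAT3. It was 23.5-fold higher in siSTAT3 than in NC (log2 fold change 4.55 ± 0.85, edgeR adjusted p = 0.0358), and the fitted size depends on these few control reads. Against NC replicates 1 and 2 alone it was 13.6-fold (3.76, adjusted p = 0.0102), and against replicates 3 and 4 alone 86.1-fold (6.43, 0.00722). With replicates 3 and 4 alone, IL1B was tested only because of siSTAT3, where it was high, so that p-value is not support. The call was lost without the filter on low counts (adjusted p = 0.0532) and with only the groups compared in the fit (0.0667). A fit with replicate number as a block lost it too (0.0512), as did fits without NC replicate 1, 2 or 3 (0.0543 to 0.0732). Without siSTAT3 replicate 1 or 2 the value was 4.44 or 4.65, from a group left with 1 library.

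ICAM1 stood at 7.64, 7.58, 11.5 and 12.1 CPM in NC, 7.21 and 7.27 in siHMGN5, and 1.69 and 1.28 in siSTAT3. Both siSTAT3 libraries lay far below all others. ICAM1 was 6.5-fold lower in siSTAT3 than in NC (-2.70 ± 0.32, edgeR adjusted p = 0.00888), and passed against either NC pair (-2.35, adjusted p = 0.0152, and -3.0, 0.00732). Without siSTAT3 replicate 1 or 2 the adjusted p was 0.0618 or 0.0800, in a fit where the remaining library was assumed to vary like the other groups.

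CXCL8 was at 6.17, 5.61, 11.8 and 9.70 CPM in NC, 6.71 and 5.83 in siHMGN5, and 3.97 and 3.78 in siSTAT3. Its value in siSTAT3 was the lowest of the 3 groups without overlap, but -1.10 ± 0.36 did not pass against all NC libraries (edgeR adjusted p = 0.179). It passed against NC replicates 3 and 4 alone (-1.49, adjusted p = 0.0233) and under DESeq2 (0.0240), and not against replicates 1 and 2 (-0.60, 0.181). For NFKBIA, at 23.7, 25.2, 52.6 and 53.1 CPM in NC and 33.2 and 29.8 in siSTAT3, the choice of controls turned the sign. It was 0.36 against NC replicates 1 and 2 (adjusted p = 0.143) and -0.76 against replicates 3 and 4 (adjusted p = 0.0184). With the 4 NC libraries together it was -0.30 ± 0.38 (adjusted p = 0.807).

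Against NC replicates 3 and 4 alone 4 of 8 members passed in siSTAT3, beside 8.87% of transcripts, and against replicates 1 and 2 alone 2 of 8, beside 6.54%. The 4 include IL1B, tested in that fit only because of siSTAT3, where it was high. TNFAIP3 was at 2.18, 4.52, 7.55 and 5.01 CPM in NC, 3.40 and 5.78 in siHMGN5, and 10.6 and 8.57 in siSTAT3. IL1A was at 0.961, 0.467, 4.14 and 3.03 CPM in NC, 0.450 and 0.154 in siHMGN5, and 4.28 and 5.11 in siSTAT3. Both were above every NC library in siSTAT3, and neither passed (0.99 ± 0.47, edgeR adjusted p = 0.355, and 1.13 ± 0.85, 0.587). The value of TNFAIP3 was 1.52 against NC replicates 1 and 2 and 0.59 against 3 and 4 (adjusted p = 0.177 and 0.436), and that of IL1A 2.71 and 0.37 (0.113 and 0.778).

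The related chemokines were close to the limit of detection in this experiment. CXCL1 was at 0.354, 0.363, 0.577 and 0.365 CPM in NC, 0.250 and 0.256 in siHMGN5, and 0.582 and 0.851 in siSTAT3. CXCL2 was at 0.354, 0.156, 0.734 and 0.939 CPM in NC, 0.601 and 0.307 in siHMGN5, and 1.06 and 1.17 in siSTAT3. CXCL3 was at 0.152, 0.156, 0.525 and 0.209 CPM in NC, 0.200 and 0.307 in siHMGN5, and 0.582 and 0.426 in siSTAT3. Values were 0.78 ± 0.61 for CXCL1 and 1.02 ± 0.77 for CXCL2 in siSTAT3 against NC (edgeR adjusted p = 0.60 and 0.584), and 0.93 for the sum of the 3 (0.406). CXCL2 was at 2.10 against NC replicates 1 and 2 and 0.39 against 3 and 4 (adjusted p = 0.230 and 0.780).

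PTX3 showed its lowest level of all groups with HMGN5 siRNA. It was at 13.1, 15.7, 28.4 and 25.4 CPM in NC, 2.5 and 2.15 in siHMGN5, and 16.0 and 15.4 in siSTAT3. This level chose it, so the 8.85-fold difference between siHMGN5 and NC (log2 fold change -3.14, -2.62 against NC replicates 1 and 2 and -3.53 against 3 and 4) is a description. In siSTAT3 PTX3 was at -0.39 against NC, 0.13 against replicates 1 and 2 and -0.79 against 3 and 4, so its direction there turned with the controls.

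In siHMGN5 against NC none of the 8 other members passed edgeR's test, beside 3.39% of transcripts (0.942% higher, 2.45% lower), although 2 had an unadjusted p under 0.05 and DESeq2 called the same 2, IL1A and NFKBIA. The median log2 fold change of all transcripts was -0.0021. NFKBIA, at 16.5 and 15.05 CPM in siHMGN5, lay below every NC library (-1.29 ± 0.40, edgeR adjusted p = 0.175; DESeq2 0.0113). Its value was -0.63 against NC replicates 1 and 2 (adjusted p = 0.0514) and -1.74 against replicates 3 and 4 (0.00479). IL1A, on 12 reads in the 2 siHMGN5 libraries together, was at -2.80 ± 1.04 (edgeR adjusted p = 0.249; DESeq2 0.0318), -1.22 against replicates 1 and 2 (0.442) and -3.54 against replicates 3 and 4 (0.0406). Against replicates 3 and 4 alone 2 of 8 members passed, beside 8.84% of transcripts, and against replicates 1 and 2 alone none did, beside 4.85%.

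The other 6 ranged from -0.70 ± 0.65 for CXCL1 to -0.02 ± 0.89 for IL1B, with adjusted p-values of 0.537 to 0.998. The sign of CXCL8, CXCL2 and TNFAIP3 turned against NC replicates 1 and 2, and that of IL1B against replicates 3 and 4. The comparisons of siSTAT3 and siHMGN5 with NC share the NC libraries, so the NC pairs enter both.

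**Figure D3:**
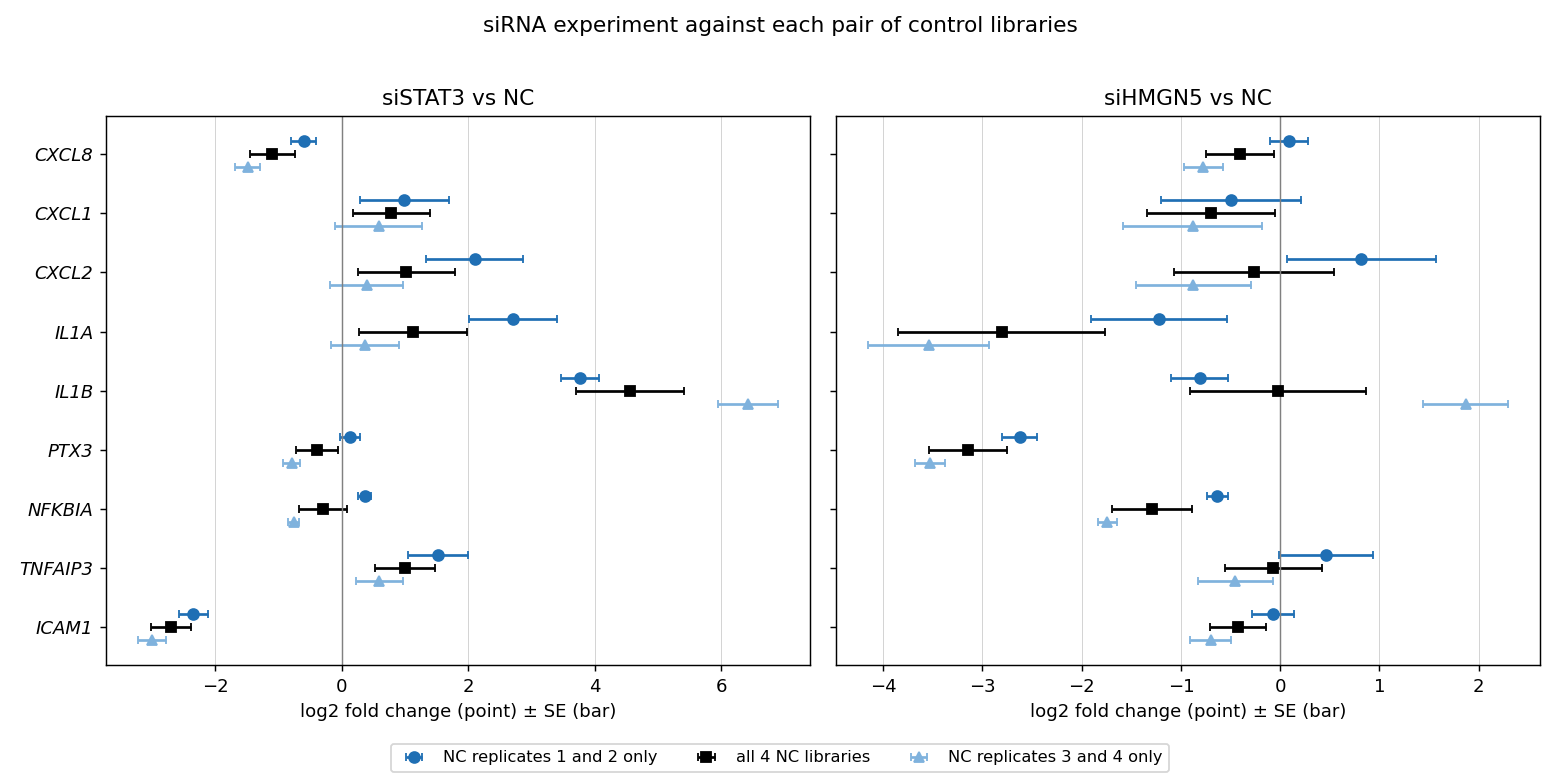
Log2 fold change (point) with its SE (bar) of 9 transcripts in siSTAT3 (left) and siHMGN5 (right) against NC replicates 1 and 2, all 4 NC libraries, and NC replicates 3 and 4; CXCL3 was not tested. Only IL1B in siSTAT3 and in siHMGN5 is higher against replicates 3 and 4 than against 1 and 2; ICAM1 in siSTAT3 keeps between -2.35 and -3.0 whichever controls are used.

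The direct comparison of siSTAT3 with siHMGN5 uses no NC library. ICAM1 was 4.86-fold lower in siSTAT3 (log2 fold change -2.28 ± 0.34, edgeR adjusted p = 0.0184), 1 of 8 members tested, beside 3.89% of transcripts (2.02% higher, 1.87% lower). The median log2 fold change of all transcripts was 0. The ICAM1 call was lost without any 1 of the 4 libraries (adjusted p 0.0808 to 0.119).

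IL1B was 23.9-fold higher in siSTAT3 than in siHMGN5 without passing (4.58 ± 1.12, edgeR adjusted p = 0.0901), and passed under DESeq2 (1.84e-05), limma-voom (0.0402) and with only these groups fitted (0.0235). It reached 10 reads in 0 of 2 siHMGN5 libraries. The fit of only these groups thus tested IL1B only because of siSTAT3, where it was high, and its p-value there is not support. IL1A was 15.2-fold higher (3.93 ± 1.16, edgeR adjusted p = 0.149; DESeq2 0.00424). NFKBIA was 2.0-fold higher (1.0 ± 0.44, edgeR adjusted p = 0.327) and passed with only these groups fitted (0.0411). Of 11 alternative fits, IL1B passed in 4, IL1A in 1 and NFKBIA in 2. Among the 11, 4 fits left a group with 1 library. PTX3 was 6.73-fold higher in siSTAT3, with no test. CXCL8, at -0.69 ± 0.40 (adjusted p = 0.453), had a value on the side of ICAM1.

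The same STAT3 siRNA treatment was compared between the experiments, which share no library, as the difference of the 2 log2 fold changes. Of the 9 members tested 4 differed, beside 5.51% of 86839 transcripts (2.23% higher, 3.28% lower), and all 4 had log2 fold changes of opposite sign in the 2 experiments, except that NFKBIA in siSTAT3 turned to 0.36 against NC replicates 1 and 2. The median difference over all transcripts was -0.06. The experiments differ in infection and in every other step between them, and these cannot be told apart.

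ICAM1 fell by 2.70 on the log2 scale in the siRNA experiment and rose by 1.29 in the lentiviral one, a difference of -4.01 ± 0.29 (edgeR adjusted p = 5.29e-06). IL1B showed the reverse, 4.55 against -2.62, a difference of 7.16 ± 0.97 (adjusted p = 0.000626). CXCL8 was at -1.10 against 1.19, a difference of -2.31 ± 0.35 (adjusted p = 0.00153), and NFKBIA at -0.30 against 2.06, a difference of -2.38 ± 0.40 (adjusted p = 0.00310). These 4 passed in all 20 alternative fits.

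TNFAIP3 was raised in value in both experiments, by 0.99 and 2.69, and the difference of -1.72 ± 0.49 missed the threshold (edgeR adjusted p = 0.0639). It passed against NC replicates 3 and 4 (-2.11, adjusted p = 0.00158), under DESeq2 (0.00469) and limma-voom (0.0275), and without NC replicate 1 (0.00389). CXCL1 (-1.0 ± 0.42), CXCL2 (-1.08 ± 0.72), CXCL3 (-0.78 ± 1.01) and IL1A (0.90 ± 0.88) did not pass, with adjusted p-values of 0.233 to 0.831. IL1A passed against NC replicates 1 and 2 (2.49, 0.0241), where 5 of 9 members and 6.67% of transcripts did. CXCL2 passed against replicates 3 and 4 (-1.69, 0.0263), where 6 of 9 members and 10.9% of transcripts did. PTX3 had a difference of 0.79, with no test.

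**Figure D4:**
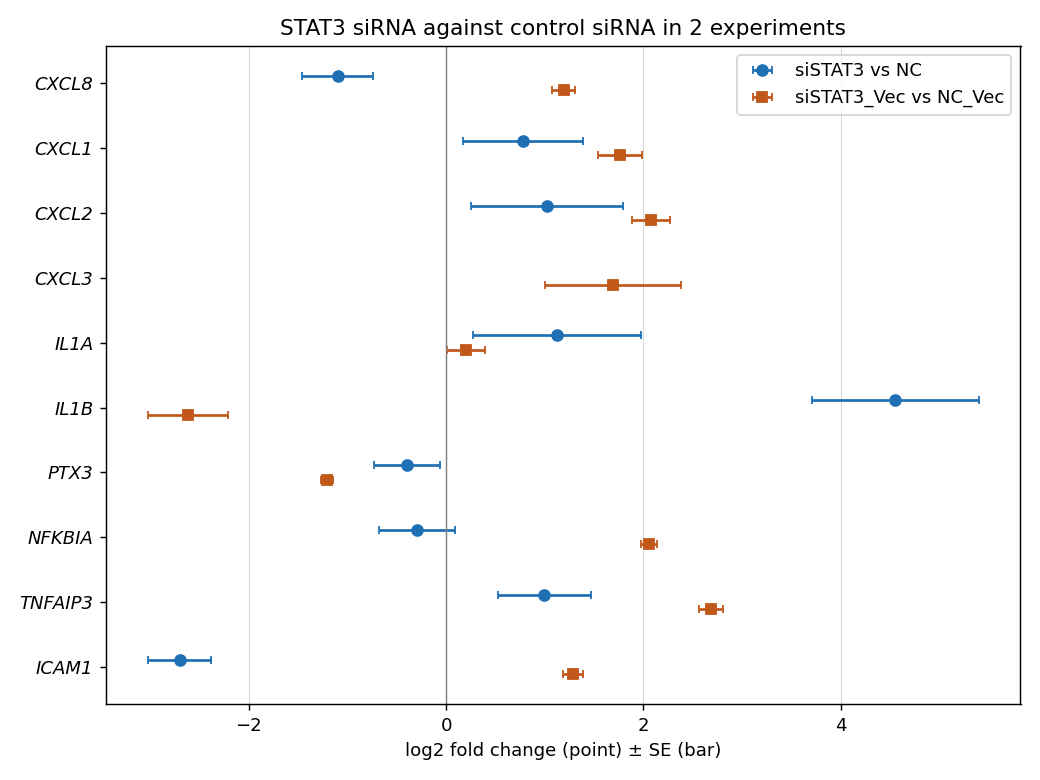
Log2 fold change (point) with its SE (bar) of STAT3 siRNA against control siRNA for each transcript, in the siRNA experiment (blue circles) and in the lentiviral experiment (orange squares); CXCL3 was not tested in the former and PTX3 is shown without a test. ICAM1, CXCL8 and NFKBIA lie left of 0 in the siRNA experiment (NFKBIA right of it, at 0.36, against NC replicates 1 and 2 alone) and right of 0 in the lentiviral one, and IL1B lies the other way round (4.55 and -2.62).

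The order of the 6 groups was read for each member on CPM scaled over all 17 libraries together, where neighbours whose libraries overlap are not separated. CXCL8 ran from siSTAT3 (3.79 ± 0.13, SD, n = 2) through siHMGN5 and NC, which overlapped, to NC_Vec (16.7 ± 1.3, n = 3), siSTAT3_HMGN5 (23.01 ± 1.4, n = 3) and siSTAT3_Vec (38.2 ± 5.3, n = 3). CXCL1 and CXCL2 ended in the same 3 lentiviral groups in the same order, at 1.93, 3.36 and 6.53 CPM and at 1.28, 3.01 and 5.41 CPM. Below them came siHMGN5, NC and siSTAT3, of which NC overlapped siSTAT3 for CXCL1 and siHMGN5 for CXCL2. For CXCL3 only siSTAT3_Vec, at 0.741 ± 0.070 CPM, stood apart from its neighbour.

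ICAM1 was the only member whose 6 groups were all separate from their neighbours: siSTAT3 at 1.45 ± 0.29 CPM, siHMGN5 at 7.04 ± 0.07, NC at 9.62 ± 2.45, NC_Vec at 71.4 ± 8.1, siSTAT3_HMGN5 at 92.7 ± 7.2 and siSTAT3_Vec at 174 ± 15. The share of all transcripts with 6 separate groups was not counted, so this is not read as a trait of ICAM1. For NFKBIA siHMGN5 was lowest at 15.3 ± 0.9 CPM, siSTAT3, NC and NC_Vec overlapped in turn between 30.8 and 39.6, and siSTAT3_HMGN5 and siSTAT3_Vec stood apart at 128 ± 6 and 165 ± 12. TNFAIP3 had siHMGN5, NC and NC_Vec overlapping in turn from 4.47 to 7.32 CPM, then siSTAT3 at 9.38 ± 1.43, siSTAT3_HMGN5 at 43.1 ± 3.2 and siSTAT3_Vec at 47.3 ± 0.5.

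IL1B was highest in siSTAT3 (7.23 ± 0.74 CPM) and next in NC_Vec (2.94 ± 0.31), and its other 4 groups lay between 0.207 and 0.475, with siHMGN5, NC and siSTAT3_Vec overlapping in turn. NC also overlapped siSTAT3_HMGN5. IL1A was lowest in siHMGN5 (0.293 ± 0.203 CPM) and highest in siSTAT3 (4.59 ± 0.57), and the 4 groups between overlapped in turn from 2.14 to 3.50. PTX3 ran from siHMGN5 (2.26 ± 0.23 CPM) through siSTAT3_HMGN5 (14.2 ± 0.6) and siSTAT3 (15.3 ± 0.4) to NC and siSTAT3_Vec, and then NC_Vec (64.8 ± 3.7). NC overlapped siSTAT3_Vec, siSTAT3 and siSTAT3_HMGN5.

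Between genes, levels were compared as CPM per kilobase of effective length. NFKBIA was the highest member in 5 of the 6 groups, from 12.1 CPM per kilobase in siHMGN5 to 126 in siSTAT3_Vec, and PTX3 in NC_Vec, at 39.3 beside 30.3 for NFKBIA. The lowest was IL1B in NC, siSTAT3_Vec and siSTAT3_HMGN5 (0.226, 0.342 and 0.149 CPM per kilobase), CXCL3 in NC_Vec (0.270), IL1A in siHMGN5 (0.165) and ICAM1 in siSTAT3 (0.495). ICAM1 went from the lowest member in siSTAT3 to the second highest in siSTAT3_Vec, at 57.2 CPM per kilobase.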

How the data were processed

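RNA was sequenced from 17 libraries. The authors deposited estimated counts and TPM per transcript, made with Salmon 1.4.0 on a GRCh38 reference per the submitters' processing notes, with effective lengths per the file headers. TPM was not tested. Other transcripts of the 10 genes were not summed, since nothing used here pairs transcripts with genes, and 2 H3K27ac profiles were not analysed here. The members and lists were chosen with earlier results of these data known.

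Estimated counts were rounded and tested in edgeR 4.0.16 (R 4.3.3) with TMM, filterByExpr and the quasi-likelihood test, in 1 fit of 8 libraries, 1 of 9, and 1 of all 17 for the difference between experiments. The test was tried on simulated data. All 10 members are named, with full statistics for those past the threshold. An estimate within 0.0015 reads of an integer was taken as whole. Alternatives were RLE scaling, no filter, DESeq2 1.42.0, limma 3.58.1 voom, only the groups compared, a replicate block, each NC pair, single libraries left out, and CXCL1, CXCL2 and CXCL3 summed.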

Additional observations from a re-analysis of the deposited data

Results flagged for a closer look

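In a group of 4 libraries, a highest or lowest library far from the next was singled out by Dixon's 95% criterion, which chance meets in about 1 of 20 groups. NC replicate 3 met it for CXCL1, with a gap of 0.950 of the range (0.577 CPM against 0.354 to 0.365), and for CXCL3, with 0.847 (0.525 CPM against 0.152 to 0.209). Both rest on few reads.

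The effect of STAT3 siRNA differed between the siRNA and the lentiviral experiment for 4 of 9 members in edgeR's interaction test, beside 5.51% of transcripts. The difference of the log2 fold changes was -2.31 for CXCL8, 7.16 for IL1B, -2.38 for NFKBIA and -4.01 for ICAM1.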

How the results depend on the processing

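Counts of members called moved as follows. In siSTAT3 against NC, 2 became 1 without the filter, with only the groups compared and with the replicate block, 3 under DESeq2, and 4 against NC replicates 3 and 4. The 4 include IL1B, tested in that fit only because of siSTAT3, where it was high. In siHMGN5 against NC, 0 became 2 under DESeq2 and against NC replicates 3 and 4. In siSTAT3 against siHMGN5, 1 became 3 under DESeq2, with the block and with only the groups compared, and 2 under limma-voom. With only the groups compared, IL1B was tested only because of siSTAT3, where it was high. In siSTAT3_HMGN5 against siSTAT3_Vec, 3 became 5 under DESeq2 and limma-voom, 2 without the filter and 1 with the block. In siSTAT3_HMGN5 against NC_Vec, 7 became 5 without the filter and with only the groups compared, and 6 with the block. In siSTAT3_Vec against NC_Vec, 7 became 8 under DESeq2. Between experiments, 4 became 5 under DESeq2, limma-voom, the block and NC replicates 1 and 2, and 6 against NC replicates 3 and 4. Leaving out 1 library gave 0 to 2, 0 to 0, 0 to 0 and 1 to 2 in the first 4 comparisons, 7 to 7 in siSTAT3_Vec against NC_Vec, 4 to 7 in siSTAT3_HMGN5 against NC_Vec, and 4 to 5 for the difference between experiments.

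Some values changed sign. None of them passed against all libraries or with the changed sign, but against NC replicates 3 and 4 NFKBIA in siSTAT3 (-0.76, adjusted p = 0.0184) and CXCL2 between experiments (-1.69, 0.0263) passed with the sign first reported. With the block and against NC replicates 1 and 2 these were NFKBIA in siSTAT3 against NC (0.36 and 0.36), CXCL8 (0.0892 and 0.0919), CXCL2 (0.83 and 0.82) and TNFAIP3 (0.48 and 0.46) in siHMGN5 against NC, and CXCL2 between experiments (0.14 and 0.0105). These 2 settings are not separate evidence. In the siRNA experiment the block sets no other library beside NC replicates 3 and 4, so it nearly repeats the comparison with replicates 1 and 2. In siHMGN5 against NC, limma-voom gave 0.45 for IL1B and 0.0170 for TNFAIP3, and NC replicates 3 and 4 gave 1.87 for IL1B. There, leaving out 1 library gave -0.82 to 0.13 for CXCL2 (above 0 without NC replicate 4 or siHMGN5 replicate 2), -0.37 to 0.44 for IL1B (without NC replicate 1 or 2) and -0.51 to 0.26 for TNFAIP3 (without NC replicate 3 or siHMGN5 replicate 1).

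Deviations of same-numbered libraries correlated at -0.07 to 0.03 in the lentiviral experiment (9 pairs) and -0.02 to 0.03 in the siRNA experiment (6 pairs). The lentiviral values gave no sign that replicate numbers pair the libraries. The siRNA values cannot decide this, because deviations within siHMGN5 and within siSTAT3 mirrored each other. The 6 values are thus not separate checks, and the NC libraries also carry the gap between their pairs. Over all transcripts DESeq2 called 10647 against edgeR's 3180 in siSTAT3 against NC, 9904 against 2520 in siHMGN5 against NC, 10178 against 2892 in siSTAT3 against siHMGN5, 16971 against 9937 in siSTAT3_Vec against NC_Vec, 8074 against 2628 in siSTAT3_HMGN5 against siSTAT3_Vec, and 10206 against 4786 between experiments. In siSTAT3_HMGN5 against NC_Vec it called 22885 against 15572. The cause was not tested. Depth limits CXCL1, CXCL2, CXCL3 and IL1B in the siRNA experiment.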
